A study of Mus musculus with 12 samples.

Results

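The genes described here are 9 regulators and surface molecules known from hematopoietic stem cells, namely *Hlf*, *Mecom*, *Prdm16*, *Mllt3*, *Tek*, *Angpt1*, *Procr*, *Esam* and *Gpr56*. They were found by their symbols in the count table, where 9 of the 9 were present among 41128 genes, and their levels were compared in PreMegEs, the bone marrow progenitors that give rise to megakaryocytes and erythroid cells. PreMegEs were sorted from adult C57BL/6 mice 12 to 16 weeks old in 4 groups of 3 libraries, and each library held cells pooled from 3 mice. WT PreMegEs came from wild type mice. P2+ and P2- PreMegEs came from mice with 1 *Runx1 P1-GFP::P2-hCD4* allele beside 1 wild type allele, in which GFP reports the distal promoter P1 and a truncated human CD4 the proximal promoter P2 of *Runx1*. P1+ cells of these mice were split by hCD4, so that both fractions shared the reporter allele, which WT cells lacked. KO PreMegEs came from mice labelled as a RUNX1C knockout, in which the product of P1 is missing and P2 is intact. No other agent or treatment was given to any group.

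Hematopoietic stem cells keep their numbers through transcription factors such as HLF, MECOM and PRDM16 and through receptors that bind them to their niche. TEK (TIE2) is the receptor of the ligand angiopoietin-1, which *Angpt1* encodes, and both PROCR (EPCR) and ESAM serve as markers by which stem cells are sorted. Several of these genes are shared with megakaryocyte progenitors or with endothelium, and most are known to decline as progenitors mature.

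The libraries held between 10726098 and 14445026 counts, and a gene counted 3 times had between 0.208 and 0.286 CPM (counts scaled to a common library size, after TMM factors), which bears on counting error alone. The PreMegE genes *Kit*, *Slamf1*, *Gata1* and *Gata2* were present in every group, with a summed level of between 1939 and 2515 CPM. *Runx1* had 370 ± 16.1 CPM (SD, n = 3) in WT, 210 ± 7.83 in P2-, 632 ± 23.6 in P2+ and 360 ± 20.9 in KO. The KO and WT levels were not told apart (log2 fold change -0.05, SE 0.06, adjusted p = 0.702), and since the count sums the transcripts of both promoters it does not check the knockout label. Replicate 2 of P2- and of P2+ stood apart by immediate early genes, with *Fos* at 1317 and 908 CPM against at most 166 CPM in the other libraries. *Xist*, which female cells express, ran from 0 to 2717 CPM over the libraries. It was at 0 and 5.21 CPM in replicate 2 of P2- and of P2+, where the Y-linked gene *Ddx3y* had 105 and 71.9 CPM. In replicate 3 of both fractions *Ddx3y* was at 0, and all WT and KO libraries held both genes. The sexes in the pools thus differed between replicates and groups. None of the 9 genes lies on a sex chromosome, and an effect of sex on them was not tested. Whether the KO libraries were made and sequenced with the others is not given in the sources used here, so that such a batch cannot be told apart from the genotype.

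The promoters of the 9 genes were searched for the letters of 3 binding motifs, and 5 of these windows are printed to show the matches found. Windows of 300 bases (250 before and 50 after a RefSeq start, build GRCm38.p6) were found for 7 of the 9 genes, 10 windows in all. On either strand, the RUNX core TGTGGT was in 0 of the 10 windows, the GATA motif AGATAA in 1 and the ETS motif CGGAAG in 2, with no overlap between them. Of 32851 windows of the same length over all genes, 16.8%, 11.2% and 16.9% held these letters. The GATA letters were in the *Tek* window (chr4:94739039-94739338, + strand), shown with the match in capitals.
Tek: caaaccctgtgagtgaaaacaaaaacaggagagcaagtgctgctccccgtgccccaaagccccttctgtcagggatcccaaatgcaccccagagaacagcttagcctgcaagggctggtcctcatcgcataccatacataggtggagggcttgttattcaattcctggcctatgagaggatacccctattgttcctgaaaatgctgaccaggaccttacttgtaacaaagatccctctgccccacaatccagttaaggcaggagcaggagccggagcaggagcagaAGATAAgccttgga
The ETS letters were in the *Procr* window (chr2:155750967-155751266, + strand) and in the second *Mecom* window (chr3:30013155-30013454, - strand, at an internal start), with the match in capitals.
Procr: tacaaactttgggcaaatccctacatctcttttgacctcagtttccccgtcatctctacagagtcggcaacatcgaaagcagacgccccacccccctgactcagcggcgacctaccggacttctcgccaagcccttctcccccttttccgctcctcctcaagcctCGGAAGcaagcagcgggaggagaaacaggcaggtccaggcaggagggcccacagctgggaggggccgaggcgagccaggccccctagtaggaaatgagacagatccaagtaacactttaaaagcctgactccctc
Mecom, internal start: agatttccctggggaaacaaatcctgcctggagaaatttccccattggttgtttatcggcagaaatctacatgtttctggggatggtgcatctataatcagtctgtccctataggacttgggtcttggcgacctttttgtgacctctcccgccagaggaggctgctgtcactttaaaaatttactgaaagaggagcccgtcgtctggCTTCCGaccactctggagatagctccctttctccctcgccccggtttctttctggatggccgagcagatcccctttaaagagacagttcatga
*Mecom* and *Prdm16* encode related PR domain zinc finger proteins. The window at the distal *Mecom* start (chr3:30509710-30510009, - strand) and that of *Prdm16* (chr4:154636824-154637123, - strand) shared a run of 24 bases, in capitals here, which was in the window of 0 other genes.
Mecom, distal start: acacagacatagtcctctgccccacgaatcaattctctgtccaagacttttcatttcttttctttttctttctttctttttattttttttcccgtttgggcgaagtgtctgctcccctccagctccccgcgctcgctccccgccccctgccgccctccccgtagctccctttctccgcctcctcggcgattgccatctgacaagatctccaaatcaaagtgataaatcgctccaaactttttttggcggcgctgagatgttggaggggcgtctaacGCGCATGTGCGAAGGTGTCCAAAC
Prdm16: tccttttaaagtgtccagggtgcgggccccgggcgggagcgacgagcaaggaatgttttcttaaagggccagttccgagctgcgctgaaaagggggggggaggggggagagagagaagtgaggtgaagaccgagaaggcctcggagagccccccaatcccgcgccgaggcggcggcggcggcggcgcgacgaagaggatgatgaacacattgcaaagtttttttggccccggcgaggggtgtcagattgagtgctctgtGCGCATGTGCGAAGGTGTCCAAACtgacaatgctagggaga
Counted from 1 at the 5' end of the window, the run took bases 277 to 300 in *Mecom* and 260 to 283 in *Prdm16*, downstream of the start in both. The counts used here sum all transcripts of a gene, so the starts of *Mecom* were not separated.

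Per length of exon, the 9 genes covered a wide range of levels. In WT cells *Gpr56* had 302 ± 25.3 RPKM (SD, n = 3), above 99.0% of 13188 expressed genes, and *Angpt1* had 141 ± 3.30 RPKM, above 97.7%. *Hlf* followed with 15.4 ± 1.58 RPKM, *Tek* with 8.02 ± 0.722 and *Mllt3* with 6.36 ± 0.698. *Esam* had 4.41 ± 0.536 RPKM, *Prdm16* 2.72 ± 0.238, *Mecom* 2.06 ± 0.213 and *Procr* 0.849 ± 0.528. The ligand gene *Angpt1* was thus far above the gene of its receptor *Tek* per length in these cells, and in P2+ PreMegEs the levels were 199 ± 13.4 and 13.4 ± 1.91 RPKM. *Procr*, whose protein marks stem cells, was among the lowest genes kept, and with 4 to 32 counts a library its values carry large errors. With the longest transcript as the length, *Mecom* in WT rose to 4.50 RPKM and *Mllt3* to 12.6, so that the order of neighbours in the middle of the range depends on the length used.

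**Figure D1:**
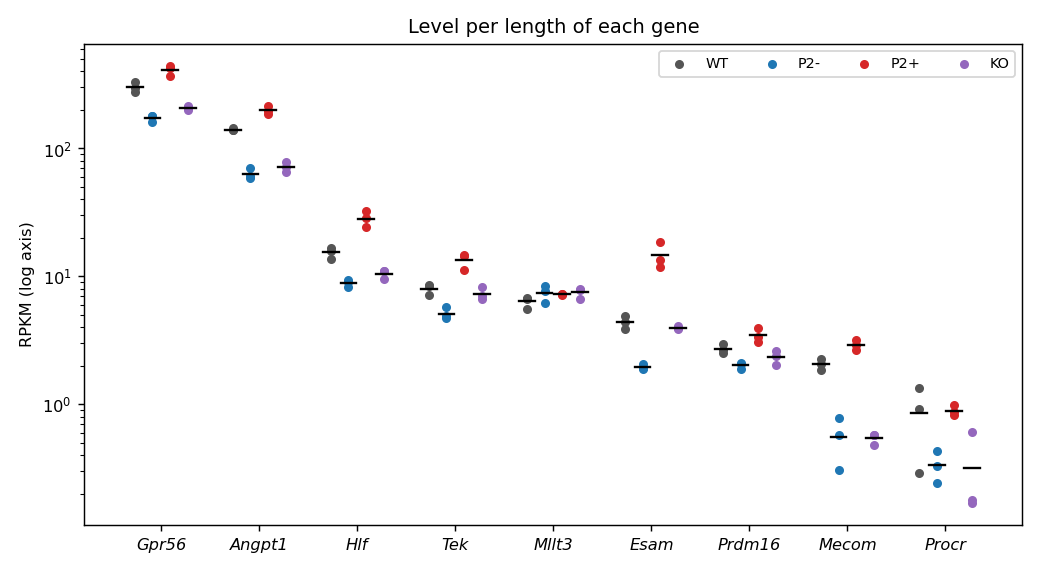
RPKM of each gene in the 12 libraries on a log axis, ordered by level, with a point for each library and a black line for the mean of the 3 libraries of a group (WT, P2-, P2+, KO). *Gpr56* and *Angpt1* lay highest and *Procr* lowest, and *Esam* and *Mecom* spread furthest between groups.

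*Hlf*, a PAR bZIP transcription factor of stem cells (chr11:90336536-90390895, - strand, GRCm38), was 3.20-fold higher in P2+ than in P2- cells. The 3 libraries had 62.4, 55.2 and 59.9 CPM in P2-, 73.8, 73.3 and 63.8 in KO, 112, 106 and 91.4 in WT, and 216, 162 and 190 in P2+. No library of any group overlapped those of another. The rise in P2+ over P2- cells (log2 fold change 1.68, SE 0.11, adjusted p = 1.11e-05, edgeR's quasi-likelihood test with Benjamini-Hochberg adjustment over all genes, as for every adjusted p below) was seen in 3 of 3 replicate pairs, at 3.46-, 2.94- and 3.17-fold. In bulk libraries such as these, fewer cells with a transcript and less of it per cell cannot be told apart.

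*Mecom*, which encodes EVI1 and its longer PR domain form (chr3:29951296-30548008, - strand), was high in WT and P2+ cells and low in both P2- and KO cells. WT libraries had 28.2, 22.9 and 25.8 CPM and P2+ libraries 32.9, 36.2 and 39.7. P2- libraries had 3.82, 7.15 and 9.69 CPM (48, 75 and 138 counts) and KO libraries 7.15, 7.11 and 6.01 (82, 83 and 66 counts). The WT and P2+ libraries lay above every P2- and KO library, and the P2- and KO libraries overlapped. *Mecom* rose in P2+ over P2- cells with a log2 fold change of 2.39 (SE 0.28, adjusted p = 0.000258), and the fold of the 3 replicate pairs ran from 8.62 in pair 1 to 4.10 in pair 3, with P2- libraries that varied widely (coefficient of variation 42.8%).

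*Prdm16*, the related regulator of stem cell maintenance (chr4:154316125-154636873, - strand), moved the same way over a smaller range. Its libraries ran from 17.4 to 19.6 CPM in P2-, 18.9 to 24.3 in KO, 23.3 to 27.7 in WT and 28.8 to 36.8 in P2+. Every P2+ library was above every P2- library, while KO libraries overlapped those of both P2- and WT. The rise in P2+ over P2- cells was 1.72-fold (log2 fold change 0.79, SE 0.13, adjusted p = 0.00166), below the minimum of 2-fold set for a changed gene.

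*Mllt3* (AF9), a reader of acylated histones in complexes that bind DOT1L or the elongation factors (chr4:87769925-88033364, - strand), stood apart from the other 8 genes in that no comparison of groups passed the test. Its libraries ran from 66.7 to 82.0 CPM in WT, 74.5 to 101 in P2-, 85.2 to 87.7 in P2+ and 79.6 to 95.7 in KO. P2+ and P2- libraries overlapped, with a log2 fold change of -0.04 (SE 0.11, adjusted p = 0.805) whose 95% interval, -0.28 to 0.20, spans 0.824-fold to 1.15-fold.

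*Tek*, the angiopoietin receptor (chr4:94739289-94874976, + strand), had 22.4, 23.1 and 26.9 CPM in P2-, 33.1, 39.2 and 31.3 in KO, 40.2, 33.9 and 39.3 in WT, and 52.9, 68.3 and 68.7 in P2+. The P2- libraries lay below and the P2+ libraries above all others, and KO and WT libraries overlapped. It rose in P2+ over P2- cells with a log2 fold change of 1.39 (SE 0.13, adjusted p = 8.18e-05). Its ligand gene *Angpt1* (chr15:42424723-42676977, - strand) had 306, 317 and 366 CPM in P2-, 370, 410 and 341 in KO, 723, 752 and 722 in WT, and 974, 1023 and 1111 in P2+. Here the KO libraries overlapped those of P2- and stayed far below those of WT. *Angpt1* rose in P2+ over P2- cells with a log2 fold change of 1.66 (SE 0.09, adjusted p = 5.29e-06), at 3.19-, 3.23- and 3.03-fold in the 3 replicate pairs. An antisense gene, *Gm17473*, covers 14.2% of its exonic bases, and whether the counting used strand is not given. *Gm17473* had between 5 and 36 counts against at least 3325 for *Angpt1*, and an effect of the overlap on the *Angpt1* counts was not tested.

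*Procr*, the protein C receptor (chr2:155751117-155755471, + strand), had 11, 7 and 7 counts in P2-, 14, 4 and 4 in KO, 27, 32 and 8 in WT, and 24, 24 and 23 in P2+. The P2+ libraries lay above those of P2-, and 1 WT library, replicate 3, fell among the P2- and KO libraries. The log2 fold change between P2+ and P2- cells was 1.41 (SE 0.42, adjusted p = 0.027). It entered this test through the P2+ libraries alone, since every P2- library was under the minimum of 1 CPM, and the call was lost without the filter (adjusted p = 0.0733), in DESeq2 (0.0838), with all 12 libraries in one fit (0.0584), and without replicate 2 (0.053) or replicate 3 (0.0834) of P2-.

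*Esam*, a junctional adhesion molecule of stem cells, megakaryocytes and endothelium (chr9:37528078-37538319, + strand), had 5.41, 5.53 and 5.90 CPM in P2-, 11.1, 11.2 and 11.8 in KO, 14.2, 12.7 and 11.1 in WT, and 33.9, 38.6 and 52.8 in P2+. The P2- and P2+ libraries stood apart from all others, on either side of KO and WT libraries that overlapped. Between P2+ and P2- cells it rose 7.44-fold (log2 fold change 2.90, SE 0.19, adjusted p = 1.06e-05), more than any of the other 8 genes. *Gpr56* (*Adgrg1*, chr8:94974751-95014217, + strand), an adhesion receptor coupled to G proteins, ran from 868 to 981 CPM in P2-, 1087 to 1161 in KO, 1506 to 1779 in WT and 2014 to 2401 in P2+, with no overlap between any groups. Its rise in P2+ over P2- cells was 2.38-fold (log2 fold change 1.26, SE 0.08, adjusted p = 1.21e-05).

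**Figure D2:**
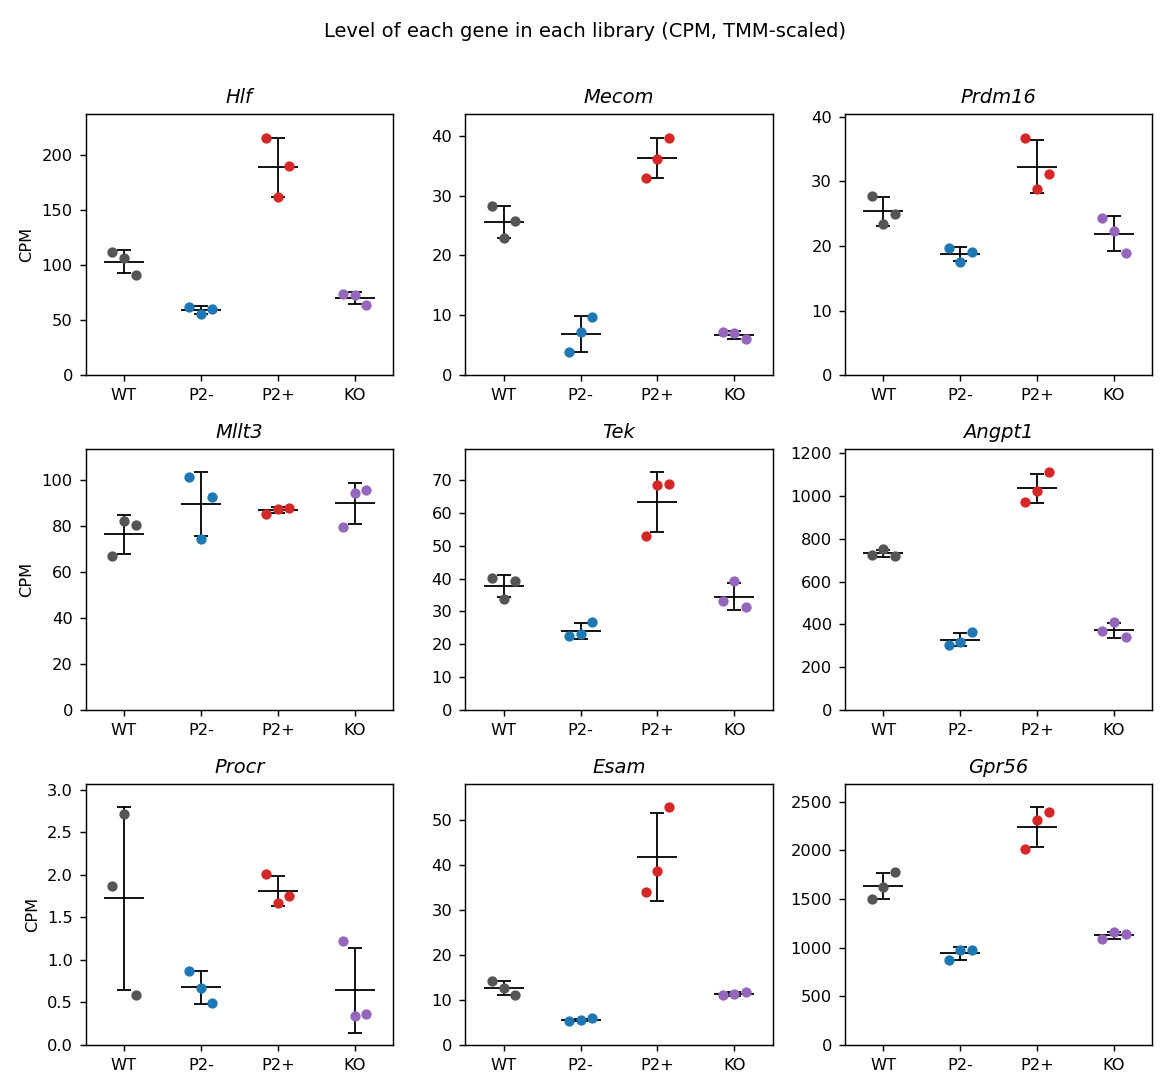
CPM of each of the 9 genes on a linear axis from 0, with a coloured point for each library of WT, P2-, P2+ and KO PreMegEs, and the mean and SD of the 3 libraries in black. For 8 of the genes the P2+ libraries lay above the P2- libraries, and the groups overlapped for *Mllt3*.

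Of the 9 genes, 7 were changed between P2+ and P2- PreMegEs (adjusted p under 0.05 and at least 2-fold) and all 7 were higher in P2+, namely *Hlf*, *Mecom*, *Tek*, *Angpt1*, *Procr*, *Esam* and *Gpr56*. Over all 12836 genes tested, 12.7% were changed and 9.54% changed and higher. Since *Procr* was tested only because of the P2+ libraries, where it is high, its part in this count was helped by the filter. Of the other 8 genes 6 were changed, 7 passed without the minimum fold, with *Prdm16* added, against 20.1% of all genes higher, and 7 had groups that did not overlap, as 49.9% of all genes did. The median log2 fold change of these 8 genes was 1.53, and that of all genes tested was -0.02. Without replicate 2 of both groups, the libraries with high immediate early genes, 6 of the 9 were changed and *Procr* was not tested.

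WT PreMegEs, which were not split by P2, had means between those of the fractions for 8 of the 9 genes. These comparisons differ in the reporter allele and the P1+ sort as well as in P2 activity. All comparisons with WT used the same 3 WT libraries. Against WT, 1 of the 9 genes was changed and higher in P2+ cells, against 2.16% of 12941 genes. It was *Esam*, 3.30-fold higher (log2 fold change 1.73, SE 0.18, adjusted p = 0.000154). Without the minimum fold 6 of 9 were higher in P2+ than in WT, against 9.45% of all genes. These were *Esam*, *Hlf* (log2 fold change 0.88, adjusted p = 0.000605), *Tek* (0.75, 0.0021), *Mecom* (0.51, 0.02), *Angpt1* (0.51, 0.000563) and *Gpr56* (0.46, 0.0027). *Prdm16* (0.35, adjusted p = 0.0948), *Mllt3* (0.19, 0.186) and *Procr* (0.09, 0.932) did not pass. The call of *Mecom* was lost without replicate 2 (adjusted p = 0.0896) or 3 (0.0578) of WT, without replicate 3 of P2+ (0.0729), and with all 12 libraries in one fit (0.104).

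In P2- cells 3 of the 9 genes were changed and lower than in WT, against 4.1% of 12767 genes. *Mecom* fell by 1.88 on the log2 scale (SE 0.27, adjusted p = 0.00123), *Esam* fell by 1.16 (SE 0.18, adjusted p = 0.00228) and *Angpt1* fell by 1.14 (SE 0.08, adjusted p = 2.72e-05). Without the minimum fold 7 were lower, against 9.6% of all genes, with *Hlf* (log2 fold change -0.79, adjusted p = 0.000394), *Gpr56* (-0.79, 0.000149), *Tek* (-0.64, 0.00601) and *Prdm16* (-0.42, 0.0435) added. *Prdm16* lost its call in 11 of 16 alternatives, at adjusted p up to 0.166, among them without any 1 of the 6 libraries. These counts hold the fit without replicate 2 of P2- under both its settings, alone and with P2+. *Procr* did not reach the count minimum in this comparison and was not tested.

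**Figure D3:**
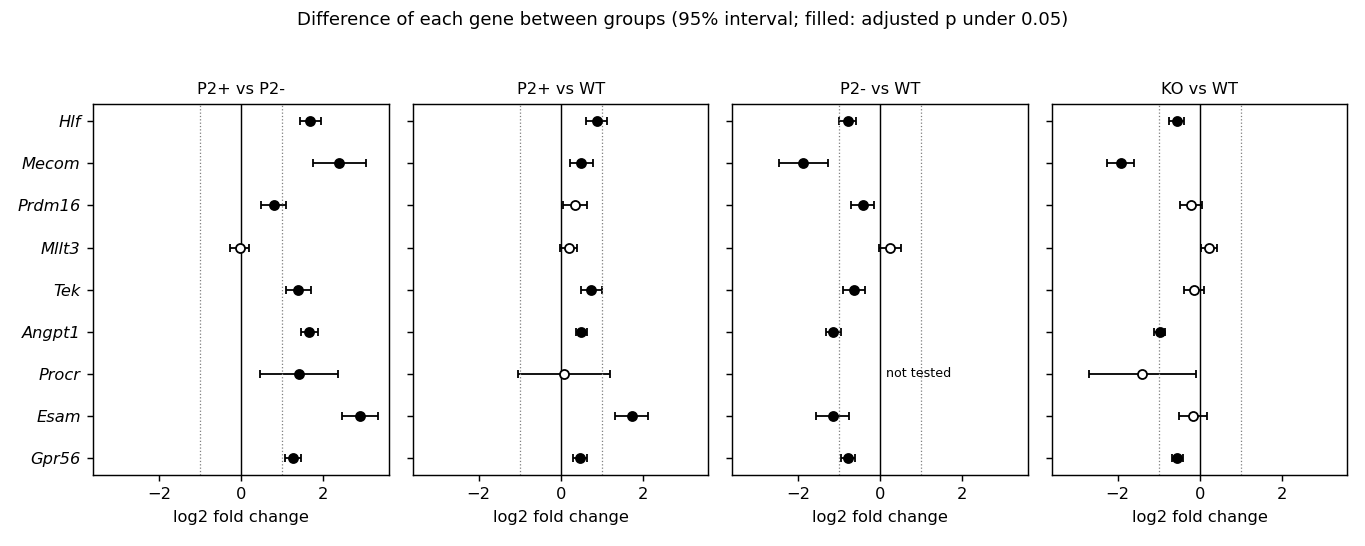
Log2 fold change of each gene with its 95% interval in 4 comparisons of 3 against 3 libraries, with filled points for an adjusted p under 0.05 and dotted lines at 2-fold. In P2+ against P2- cells 8 points are filled and lie to the right, and in KO against WT cells 4 are filled and lie to the left, *Mecom* furthest at -1.93.

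In KO against WT PreMegEs the 9 genes parted. *Mecom* fell by 1.93 on the log2 scale (SE 0.15, adjusted p = 1.62e-07), 3.79-fold by the means, and 1 of the 9 was changed and lower, against 2.67% of 12784 genes. *Angpt1* fell by 0.98 (SE 0.07, adjusted p = 2.21e-08), just short of 2-fold, and counted as changed without replicate 2 of KO. *Hlf* fell by 0.56 (SE 0.09, adjusted p = 0.000209) and *Gpr56* fell by 0.54 (SE 0.07, adjusted p = 2.15e-05). These made 4 of 9 lower without the minimum fold, against 8.76% of all genes, and the groups did not overlap for the same 4, against 31.6% of all genes.

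The receptor gene *Tek* and the adhesion gene *Esam* did not pass in KO against WT cells, where the ligand gene *Angpt1* did. *Tek* had a log2 fold change of -0.14 (SE 0.11, adjusted p = 0.486), with a 95% interval of -0.38 to 0.10, and *Esam* of -0.16 (SE 0.16, adjusted p = 0.586), with an interval of -0.50 to 0.18. *Prdm16* (-0.22, interval -0.49 to 0.05, adjusted p = 0.292) and *Mllt3* (0.23, interval 0.04 to 0.42, adjusted p = 0.111) did not pass either. For *Procr* the estimate was -1.40 with an interval of -2.70 to -0.10 (adjusted p = 0.151), which takes in a fall as large as that of *Mecom*. Without replicate 3 of WT, the library with 8 counts, *Procr* was changed and lower in KO (-1.81, adjusted p = 0.0449). *Mllt3* passed with the replicate block (0.0399), without a filter (0.0473) or without replicate 1 of KO (0.0462). That the genes differ among themselves in their response was not tested.

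Set directly against the P2- fraction, KO cells were changed and higher in 1 of 9 genes, against 0.437% of 12588 genes, and *Procr* was not tested. *Esam* was 2.03-fold higher in KO (log2 fold change 1.01, SE 0.17, adjusted p = 0.0199), at the edge of the minimum fold. With the replicate block its adjusted p was 0.0616, and without replicate 1 of P2-, or any 1 of the KO libraries, it was between 0.0573 and 0.0952. *Tek* (0.50, interval 0.23 to 0.78, adjusted p = 0.0869), *Gpr56* (0.25, 0.11 to 0.39, adjusted p = 0.0928) and *Hlf* (0.24, 0.05 to 0.43, adjusted p = 0.223) had no overlap between KO and P2- libraries and did not pass. *Tek* passed in DESeq2 (0.0335), in the exact test of edgeR (0.0442), without a filter (0.0386) and in the fit of 12 libraries (0.0497), and *Gpr56* in DESeq2 (0.0149), without a filter (0.0414) and without replicate 2 of P2- (0.0289). *Mecom* (-0.04, interval -0.72 to 0.63, adjusted p = 0.962) and *Angpt1* (0.17, interval -0.03 to 0.37, adjusted p = 0.398) overlapped. Against P2+ cells, 6 of the 9 were changed and lower in KO, against 8.32% of 12807 genes lower, namely *Hlf*, *Mecom*, *Angpt1*, *Procr*, *Esam* and *Gpr56*. Without *Procr*, which was again tested only because of the P2+ libraries, 5 of 8 were changed. *Gpr56* was just past the minimum fold. Its log2 fold change ran from -1.07 to -0.952 over the alternatives, so that it was under that fold in some, among them the replicate block (-0.998). *Procr* was just past the threshold (adjusted p = 0.0466), a call lost in 10 of 16 alternatives. These counts hold the fit without replicate 2 of P2+ under both its settings, alone and with P2-. KO cells differ from each fraction in genotype as well as in the sort.

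The order of the group means was P2-, KO, WT, P2+ from low to high for *Hlf*, *Prdm16*, *Tek*, *Angpt1*, *Esam* and *Gpr56*, and KO, P2-, WT, P2+ for *Mecom* and *Procr*. Neighbours in this order that did not pass the test were P2- and KO for *Hlf*, *Mecom*, *Tek*, *Angpt1* and *Gpr56*, KO and WT for *Tek* and *Esam*, WT and P2+ for *Procr*, and all neighbours for *Prdm16*. *Procr* was not tested between KO and P2- or between P2- and WT. On a scale of CPM on which P2- averages 0% and P2+ 100%, WT lay at 63.7% for *Mecom*, 57.0% for *Angpt1*, 53.4% for *Gpr56*, 48.8% for *Prdm16*, 34.9% for *Tek*, 33.8% for *Hlf* and 19.5% for *Esam*. On the same scale KO lay at -0.439% for *Mecom*, 6.25% for *Angpt1*, 8.57% for *Hlf*, 14.4% for *Gpr56*, 15.9% for *Esam*, 23.1% for *Prdm16* and 26.5% for *Tek*. KO and WT were thus far apart for *Mecom* and *Angpt1* and close together for *Esam* and *Tek*. *Procr* (92.4% in WT and -3.10% in KO) rests on few counts, and *Mllt3* has no place because its P2+ and P2- means were alike.

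**Figure D4:**
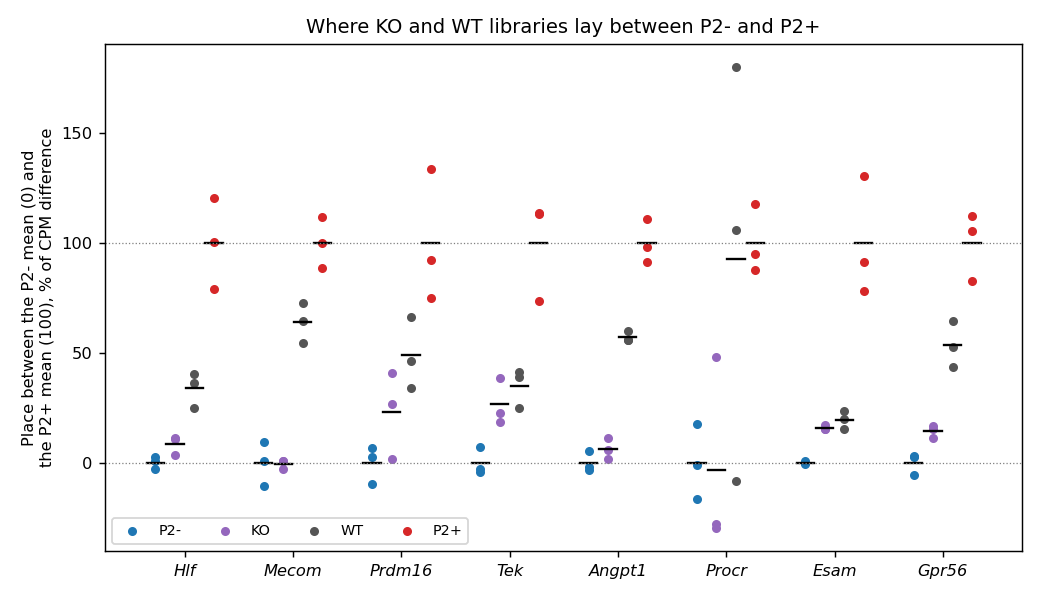
Place of each library between the P2- mean (0) and the P2+ mean (100) in percent of the CPM difference, for the 8 genes other than *Mllt3*, with a point for each library and a black line for the group mean. KO libraries of *Mecom*, *Angpt1* and *Hlf* lay near 0, and for *Esam* and *Tek* the KO and WT lines are close together.

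Among the 9 genes, the profiles over the 12 libraries most alike were those of *Tek* and *Gpr56*, with a root mean square difference of 0.186 between centred log2 CPM values, followed by *Hlf* and *Angpt1* at 0.22. Over 13272 genes, the 2 with the profile most like that of each gene were *Tspan5* (0.105) and *Rab31* (0.132) for *Hlf*, *Zfp532* (0.271) and *Dgkg* (0.300) for *Mecom*, and the stem cell factor *Erg* (0.0927) and *Emilin1* (0.137) for *Tek*. They were *Bin2* (0.122) and *Elmo1* (0.125) for *Angpt1*, *Col4a1* (0.271) and *Eltd1* (0.276) for *Esam*, and *Atp2b4* (0.0766) and *Dapp1* (0.0948) for *Gpr56*. For *Procr* the nearest were *RP24-87A4.1* (0.313) and *4930447C04Rik* (0.336), which like it had few counts. *Zfp532* had 8.16 CPM in WT, 2.67 in P2-, 12.7 in P2+ and 2.55 in KO, with KO as low as P2-, as for *Mecom*. These likenesses describe the 12 libraries and were not tested.

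Of 22 other transcription factors known from stem cells, 21 were tested between P2+ and P2- cells, where 11 were changed and higher, 0 were changed and lower, and 14 were higher without the minimum fold. Over all genes 9.54% were changed and higher and 3.13% changed and lower, and without the minimum fold 20.1% were higher and 17% lower. *Hoxb5* was tested only because of the P2+ libraries, where it is high, and of the other 20 genes 10 were changed and higher. *Nkx2-3* rose by a log2 fold change of 2.62 (adjusted p = 0.000256), *Mycn* by 2.04 (adjusted p = 8.93e-05) and *Meis1*, the cofactor of Hox proteins, by 1.81 (adjusted p = 8.43e-06). The median log2 fold change of the list was 1.06. Against WT, in KO cells 3 of 20 were changed, all lower, and 11 were lower and 1 higher without the minimum fold. *Ndn* fell by 2.22, *Egr1* fell by 1.33 and *Mycn* fell by 1.06, while *Lyl1* rose by 0.92 (adjusted p = 3.55e-08), and the list median was -0.39, against 0 for all genes. *Egr1*, an immediate early gene, had 27.1, 42.6 and 98.3 CPM in WT and 24.8, 18.3 and 24.0 in KO. The highest of these was in replicate 3 of WT, where *Fos* had 166 CPM. Of all genes, 2.67% were changed and lower and 0.743% changed and higher in KO than in WT cells, and without the minimum fold 8.76% were lower and 6.18% higher. Of this list, 2 genes are also multipotent progenitor markers (*Meis1* and *Hoxa9*) and 1 is a PreMegE gene (*Gata2*).

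Of 20 other surface and secreted molecules of stem cells, 19 were tested between P2+ and P2- cells, with 14 changed and higher, against 9.54% of all genes, and 0 changed and lower. *Thy1*, *Flt3* and *Emcn* reached the count minimum in P2+ libraries alone, and of the other 16 genes 11 were changed and higher. *Cd34* rose by a log2 fold change of 2.73 (adjusted p = 1.11e-05) and *Cd93* by 2.21 (adjusted p = 2.34e-06). *Kit*, the receptor of stem cell factor, was lower in P2+ (log2 fold change -0.37, adjusted p = 0.0224). KO cells had 2 of 18 changed against WT, *Ifitm1* (log2 fold change -3.35, adjusted p = 7.70e-10) and *Alcam* (-1.18, adjusted p = 0.0275), both lower, against 2.67% of all genes. Without the minimum fold 9 were lower, against 8.76%, and 2, against 6.18%, *Slamf1* (0.71, adjusted p = 7.51e-05) and *Kit* (0.21, adjusted p = 0.0484), were higher. Without replicate 2 of both fractions, a setting chosen after the data were seen, 10 of 20 transcription factors and 12 of 16 surface and secreted genes were changed and higher in P2+ cells, and 1 transcription factor, the immediate early gene *Egr1*, was changed and lower (log2 fold change -1.47, adjusted p = 6.65e-05).

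The partners of single genes were taken by their roles. In the TIE and angiopoietin pathway 3 of 8 genes reached the count minimum, and the co-receptor gene *Tie1* rose from 9.12 CPM in P2- to 67.0 in P2+ cells (log2 fold change 2.88, adjusted p = 6.37e-06), with the adaptor *Dok2* (0.74, adjusted p = 0.000407) and *Foxo1* (0.48, adjusted p = 0.00591) also higher. In KO against WT cells *Tie1* fell by 0.92 (adjusted p = 6.06e-05), and *Tek* did not pass. Of the genes around the protein C receptor, 5 of 8 were tested and 4 were changed and higher in P2+ cells, against 9.54% of all genes, the thrombin receptor gene *F2rl2* most (3.36, adjusted p = 6.40e-06), then *Pros1* (2.93), *Thbd* (1.66) and *F2rl3* (1.54). Between KO and WT cells *F2rl2* fell by 0.84, *Pros1* fell by 0.65 and *F2rl3* fell by 0.49, and 0 of 5 were changed by the minimum fold. Of all genes, 2.67% were changed and lower there and 0.743% changed and higher.

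Of the relatives of ESAM at cell junctions, 5 of 7 were tested and 3 were changed and higher in P2+ than in P2- cells, against 9.54% of all genes, *F11r* (2.54, adjusted p = 0.000121), *Jam3* (2.37, adjusted p = 0.00258) and *Jam2* (2.11, adjusted p = 0.00382). In KO against WT cells they went different ways, with *Tjp1* up by 2.05 (30.7 to 128 CPM, adjusted p = 5.70e-09), *Jam3* up by 1.80 (adjusted p = 0.0177) and *Jam2* down (-1.62, adjusted p = 0.0129). Of the partners and relatives of GPR56, 2 of 8 tested were changed and higher in P2+ than in P2- cells, against 9.54% of all genes, the transglutaminase ligand gene *Tgm2* (1.99, adjusted p = 1.64e-05) and the tetraspanin *Cd9* (1.73, adjusted p = 6.24e-06). Without the minimum fold 4 were higher and 1 lower, against 20.1% and 17% of all genes. The relative *Gpr97* was higher (0.75, adjusted p = 0.00204) and the G protein gene *Gna12* lower (-0.88, adjusted p = 5.84e-05). In KO against WT cells 2 were higher and 2 lower without the minimum fold, against 6.18% and 8.76% of all genes. There *Gna12* was higher (0.37, adjusted p = 0.000279), and *Cd9* (-0.80, adjusted p = 2.19e-06) and *Gpr97* (-0.75, adjusted p = 8.1e-05) were lower.

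Relatives of the transcription and chromatin genes were taken the same way. Of 4 genes listed as HLF relatives, among them *E4f1*, which encodes no bZIP factor, *Nfil3* was changed and higher in P2+ than in P2- cells (1.35, adjusted p = 0.0227). But *Nfil3* reached the count minimum in P2+ libraries alone, and without replicate 2 of both groups it was not tested. Among the 8 PRDM family genes tested, *Prdm1*, a factor of terminal differentiation in lymphocytes, was changed and lower in P2+ cells (-1.70, adjusted p = 0.0116). Of 7 partners of MECOM and PRDM16, the co-repressor *Ctbp2* alone passed between P2+ and P2- cells (0.72, adjusted p = 0.00258), where 20.1% of all genes were higher and 17% lower. By edgeR 0 of 7 passed in KO against WT cells, where 8.76% of all genes were lower and 6.18% higher. In the list of MLLT3 complex genes 1 of 13 was changed between P2+ and P2- cells, against 12.7% of all genes, the elongation factor *Ell2*, which fell by 2.12 from 111 to 25.4 CPM (adjusted p = 4.50e-06), while *Mllt3* itself did not pass. In KO against WT cells 5 of the 13 were higher and 2 lower without the minimum fold, against 6.18% and 8.76% of all genes. With the minimum fold 0 were changed, where 2.67% of all genes were changed and lower and 0.743% changed and higher.

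**Figure D5:**
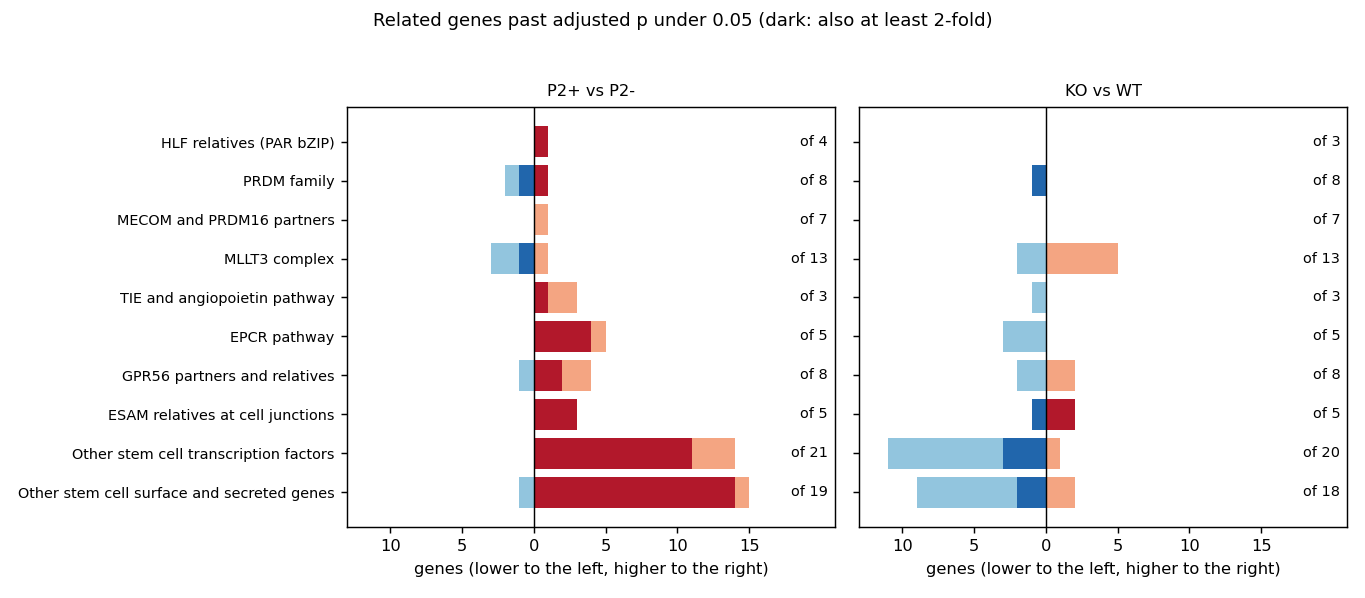
Number of genes of each related list that were higher (right) or lower (left) at an adjusted p under 0.05, in P2+ against P2- and in KO against WT cells, with dark bars for those also changed by at least 2-fold and the number tested at the right. The list of HLF relatives (PAR bZIP) also holds *E4f1*, which encodes no bZIP factor. The stem cell lists reach 14 and 15 higher in P2+ cells, where 20.1% of all genes were higher, and 11 and 9 lower in KO cells, where 8.76% were lower. The 14 and 15 include *Hoxb5*, *Thy1*, *Flt3* and *Emcn*, which were tested only because of the P2+ libraries.

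Markers of other cell types moved with the groups. The summed level of 8 megakaryocyte markers was between 57.9 and 98.2 CPM in P2-, 193 and 217 in KO, 337 and 421 in WT and 536 and 846 in P2+ libraries. That of 8 erythroid markers ran the other way, from 4792 to 5368 CPM in P2-, 4573 to 5137 in KO, 2795 to 3170 in WT and 1212 to 1331 in P2+. The 6 multipotent progenitor markers summed to between 241 and 270 CPM in P2-, 293 and 324 in KO, 396 and 436 in WT and 585 and 633 in P2+, mainly through *Meis1*, which is also in the list of transcription factors. Without *Meis1* the other 5 summed to between 122 and 142 CPM in P2-, 132 and 146 in KO, 133 and 153 in WT and 162 and 209 in P2+, with overlap between P2-, KO and WT. The part of such cells in the levels of the 9 genes was not tested. Of the endothelial markers, *Sox17* was at 0 in every library, *Stab2* was at most 0.286 CPM, *Cdh5* at most 0.625 CPM and *Cldn5* at most 0.305 CPM, while 9 markers summed to between 88.7 CPM (P2-) and 189 CPM (P2+), mainly through *Pecam1* and *Tie1*. *Plvap* ran the other way, with means of 30.9 CPM in P2-, 30.1 in KO, 17.8 in WT and 9.81 in P2+. Of the stromal markers, *Col3a1* was at 0 in every library, and 8 markers summed to between 44.1 and 57.6 CPM in P2-, P2+ and KO and to at least 59.8 CPM in WT, mainly through *Pdgfrb*. *Col1a1* had 27.4 CPM in 1 WT library and was at 0 in the other WT libraries, so that this library stood apart by a stromal gene. Neutrophil and monocyte markers summed to between 24.9 and 53.6 CPM in P2-, 30.5 and 68.8 in KO, 83.7 and 207 in WT and 104 and 262 in P2+. Mast and basophil markers summed to between 24.4 and 28.2 CPM in P2-, 28.0 and 48.0 in WT, 47.4 and 64.1 in KO and 84.3 and 137 in P2+, and lymphoid markers to between 17.0 and 27.1 CPM in P2-, 40.0 and 48.5 in KO, 46.1 and 58.8 in WT and 40.2 and 116 in P2+.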

How the data were processed

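RNA-Seq was carried out on 12 libraries of sorted PreMegEs, 3 for each of WT, P2-, P2+ and KO, grouped by the sample titles. The deposited values are raw read counts per Ensembl gene, which the authors made from poly(A) libraries sequenced in pairs, using Bowtie2 on GRCm38 and featureCounts, without normalization. The submitters' processing notes name Bowtie2 2.21, SAMtools 0.1.19, R 3.1.0 and edgeR 3.8.5. Whether counting used the strand, and how reads matching several places were treated, are not given in the sources used here.

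Counts were fitted with edgeR 4.0.16 in R 4.3.3, pair by pair, keeping genes that reached 1 CPM in 3 or more of the 6 libraries, with TMM scaling, the quasi-likelihood F-test on group and Benjamini-Hochberg adjustment over all genes tested. Changed genes are those past an adjusted p of 0.05 with a minimum of 2-fold. Intervals are 95% intervals of the fit. The script was tested on simulated data with 200 changed genes. RPKM used exon lengths from GENCODE vM21 (40254 of 41128 genes matched). DESeq2 1.42.0, other scalings and filters, the exact test of edgeR, a common fit, a replicate block and left-out libraries were the alternatives. Levels use TMM factors over the 12 libraries. Library totals were between 10726098 and 14445026 counts, and limits at 3 counts cover counting error only.

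The 9 genes and the lists were chosen with earlier results of these data known, so their directions are not independent evidence. Genes beyond the lists are named by likeness of profile, the 2 nearest for each gene whose group means span at least 1 on the log2 scale (prior count 2). Replicates are pools of 3 mice, and p-values measure the spread between pools. Same-numbered P2- and P2+ libraries deviated together from their group means (correlations over genes of 0.402, 0.591 and 0.432), so these numbers pair the samples. Same-numbered WT and KO libraries had correlations of 0.186, 0.0222 and 0.0919. In the remaining pairs of groups, same-numbered libraries had correlations from -0.0982 to 0.185. Whether these numbers pair WT with KO samples was not tested. Promoter windows are from RefSeq. Protein sequences were not analysed here, and some genes of the lists are not reported here by name.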

Additional observations from a re-analysis of the deposited data

How the results depend on the processing

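Of 816 alternative values of single genes, 752 kept their direction and their side of the threshold, 35 lost and 16 gained a call, and 13 turned direction. Where a comparison holds P2+ or P2- but not both, leaving out replicate 2 of that fraction, or of both, is the same fit. It was counted under each setting. The calls of *Hlf*, *Angpt1*, *Gpr56* and *Esam* in P2+ against P2- cells, and of *Mecom* in KO against WT cells, kept direction and threshold in each alternative fit run. Without the minimum fold, 6 of the 9 genes passed in P2+ against WT, 7 in P2- against WT and 4 in KO against WT cells, and tested against a 2-fold change, 0 passed in P2- against WT and 0 in KO against P2- cells. Leaving out 1 library gave 1 to 2 changed genes in KO against WT cells (*Procr* joined without replicate 3 of WT and *Angpt1* without replicate 2 of KO) and 0 to 1 in KO against P2- cells, where *Esam* was lost without replicate 1 or 2 of P2- or any 1 of KO, and 0 were changed without replicate 2 of both fractions.

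With the replicate block, 7 genes were changed between P2+ and P2- cells (*Mecom* 2.44, *Procr* 1.43, adjusted p = 0.0236), 1 in KO against WT, 0 in KO against P2- and 5 in KO against P2+ cells, where *Gpr56* dropped under the minimum fold, and *Prdm16* in P2- against WT was at an adjusted p of 0.0824. It changed no other call between P2+ and P2- cells. Every turn of direction was in a value that did not pass the test. *Mecom* in KO against P2- cells was 0.0315 with the replicate block, and *Mllt3* there was 0.000773 with upper quartile scaling, 0.021 with library totals and 0.0034 in the fit of 12 libraries. With single libraries left out, *Mecom* in KO against P2- cells ran from -0.34 to 0.30, *Mllt3* from -0.12 to 0.0896 in KO against P2- cells, from -0.0128 to 0.11 in KO against P2+ cells and from -0.15 to 0.0527 in P2+ against P2- cells, and *Procr* in P2+ against WT cells from -0.33 (without replicate 3 of WT) to 0.55. *Procr* in KO against P2+ cells lost its call in 10 of 16 alternatives, at adjusted p up to 0.147. These counts hold the fit without replicate 2 of P2+ under both its settings. Counting the genes other than *Procr* (6 in P2+ against P2- and 5 in KO against P2+ cells), and the list genes other than those that reached the count minimum through 1 group, was chosen after the data were seen. The causes were not tested. Scaling alternatives left the median log2 fold change of all genes between -0.04 and 0.02. The 3 libraries a group and the low counts of *Procr* limit what could be detected.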
